A study of Homo sapiens with 6 samples.

Results

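The 51 genes described here are heat shock proteins, chaperonins, their cochaperones and their main transcription factors. They were found by gene symbol among the 35410 genes of the count table, and all 51 were present. RNA was measured by MACE-Seq, in which a fragment near the 3′ end of each polyadenylated transcript is sequenced and counted. The cells are SEM, an established KMT2A::AFF1 B cell precursor leukemia line with a proB label. SEM::mock carries the empty vector and SEM::EGR3 a vector for overexpression of EGR3, a zinc finger transcription factor. Both lines were treated with 1 µg/mL doxycycline, which switches on the transgene, for 48 h before RNA was extracted, and each has 3 biological replicates. Each condition is therefore a single engineered line, so line and transgene cannot be told apart, and cells without doxycycline were not analysed here.

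Chaperones bind unfolded proteins and let them fold without aggregating, and different sets serve the cytosol, the mitochondria and the endoplasmic reticulum (ER). Cytosolic HSP70 and HSP90 proteins work in ATP-driven cycles steered by J-domain proteins and other cochaperones, while the ring-shaped CCT chaperonin encloses clients such as actin and tubulin. HSF1 drives many of the cytosolic genes after heat or other protein damage, and the unfolded protein response, with XBP1 among its factors, drives ER chaperones. Cells of the B lineage that prepare to secrete antibody are known for a large ER folding capacity.

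The promoters of both branches carry known sequence elements, and those found by their letters in the members are shown here because the ER and cytosolic genes are compared below. Promoters of 300 bases, 250 before and 50 after the annotated start, were taken from RefSeq (GRCh38.p14) for 45 of the 51 members. The ER stress element, CCAAT followed after 9 bases by CCACG on either strand, was present in 5 of the 45 members and in 0.0769% of all 35116 promoters. These are the genes of HSPA5, the ER HSP70 also known as BiP, HSP90B1, the ER HSP90, CALR and CANX, lectin chaperones for glycoproteins, and XBP1. The element is in capitals with 5 bases on each side, in the direction of transcription, so that a match on the opposite strand reads CGTGG at its 5′ end. Only stretches before the annotated start are printed.
XBP1, chr22:28800598-28800626, minus strand: gctggCCAATCGCGGAGGGCCACGaccgt
HSPA5, chr9:125241386-125241414, minus strand: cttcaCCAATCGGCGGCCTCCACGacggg
HSP90B1 copy 1, chr12:103930211-103930239, plus strand: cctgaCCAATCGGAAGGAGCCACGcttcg
HSP90B1 copy 2, chr12:103930316-103930344, plus strand: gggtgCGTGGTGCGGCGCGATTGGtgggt
CALR, chr19:12938379-12938407, plus strand: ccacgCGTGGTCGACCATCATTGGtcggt
CANX, chr5:179698773-179698801, plus strand: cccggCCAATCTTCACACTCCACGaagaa

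A heat shock element is built from alternating GAA and TTC units. The pair GAANNTTC occurred in 7 of the 45 member promoters, against 6.77% of all promoters, and 6 of the 7 belong to the 10 matched genes of the cytosolic HSP70 group (DNAJA1, DNAJB6, HSPA1A, HSPA1B, HSPA8 and HSPB1). The pair TTCNNGAA was found in 5 members, against 7.74% of all promoters. A run of 3 alternating units, each 2 bases from the next and beginning with either GAA or TTC, contains both pairs and occurred in DNAJA1, DNAJB6 and HSPA8, against 0.490% of all promoters. The triple units of HSPA8 and DNAJB6 before the start are in capitals here.
HSPA8 copy 1, chr11:123062349-123062371, minus strand: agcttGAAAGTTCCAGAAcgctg
HSPA8 copy 2, chr11:123062174-123062196, minus strand: gccccTTCTGGAAGGTTCtaaga
DNAJB6, chr7:157336868-157336890, plus strand: gccgaGAACCTTCGCGAAggtgg

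HSPA1A and HSPA1B encode nearly the same stress-inducible HSP70, and the GAANNTTC pair, in capitals, has the same 5 bases on each side in both.
HSPA1A, chr6:31815432-31815449, plus strand: ccctgGAATATTCccgac
HSPA1B, chr6:31827628-31827645, plus strand: ccctgGAATATTCccgac

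The EGR letters GCGTGGGCG were in 0 of the 45 member promoters and in 0.795% of all promoters, and GCGGGGGCG was in 8 of 45 (BAG3, DNAJA1, DNAJA2, DNAJB1, HSPA4, HSPA8, HYOU1 and P4HB) and in 5.07% of all. Both strands were searched. A match is a match of letters only, and its absence holds for these windows alone.

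Library depth over the listed genes was 5286115 to 6181388 counts in SEM::mock and 7293092 to 15106018 in SEM::EGR3. EGR3 itself had counts of 8, 10 and 6 in SEM::mock and 9768, 4952 and 5557 in SEM::EGR3, so the targeted gene followed the labels. Genes of cell identity also differed between the lines. Of 12 B lineage markers, 9 had 3 counts or fewer in every SEM::mock library (EBF1, DNTT, BLK and BLNK at 0). In SEM::EGR3 2 of the 12 were that low, DNTT (2, 0 and 1 counts) and BLNK (0, 1 and 0). VPREB1 had 8, 6 and 5 counts there. All 12 summed to 2.64 to 5.86 CPM (counts scaled to a library of 1000000) in SEM::mock and 514 to 543 CPM in SEM::EGR3. The 8 KMT2A fusion targets summed to 52.0 to 59.3 and 1008 to 1065 CPM, with HOXA7 at 0 in SEM::mock. The sum of the 12 erythroid genes was high in both lines, at 4717 to 5000 and 6054 to 6300 CPM, though AHSP was at 0 in SEM::mock. Most markers of the labelled cell type were thus absent or near the detection limit in the libraries labelled SEM::mock. Whatever else sets these libraries apart cannot be told apart from EGR3 overexpression in any difference below, and in bulk RNA fewer cells of a type and less RNA per cell cannot be told apart either. Sums of the other lists were 29.7 to 33.3 and 51.5 to 53.4 CPM for 6 plasma cell genes, 6.05 to 7.84 and 14.7 to 15.8 for 3 megakaryocyte genes, 151 to 166 and 45.3 to 48.4 for 9 myeloid genes, 60.5 to 66.4 and 80.3 to 88.4 for 8 T cell genes, and 52.8 to 56.2 and 80.2 to 82.2 for 7 fibroblast and epithelial genes. A sum can rest on few genes, and genes within a list went opposite ways. The myeloid sum was mostly LYZ (154 to 42.6 CPM), while PRTN3 was higher in SEM::EGR3. Of the plasma cell genes PRDM1 and SDC1 were higher and SLAMF7 lower. At the threshold given below, the erythroid list had 3 higher and 7 lower of 10 tested. The T cell list had 2 and 2 of 4, and the fibroblast and epithelial list 2 and 1 of 3.

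SEM::EGR3 had 22 of the 51 members higher and 17 lower than SEM::mock, while 12 fell short of the threshold (adjusted p under 0.05 in edgeR's quasi-likelihood test over 15465 tested genes). Among all tested genes 68.5% passed, 36.5% as higher and 32% as lower, so the share of members called was not far from that background. The members moved by small amounts. With a change of 0.5 or more on the log2 scale in addition, 10 were higher and 5 lower, 15 in all, against 26.2%, 19.8% and 46% of all tested genes. With a change of 1 or more there were 2 members, both lower (FKBP4 and BAG3), against 8.5% lower and 25.2% in either direction. Their median log2 fold change was -0.03 and their median absolute change 0.28, against 0.03 and 0.46 over all tested genes. Abundance differs between these sets, since every member had at least 80 counts in each library. Among the 8597 genes at least as abundant as the least abundant member, 71.5% passed, 35.5% with at least 0.5, 13.4% with at least 1, and the median absolute change was 0.34. The 3 libraries of each line did not overlap for 38 of the 51 members, against 70.1% of tested genes. The p-values weigh the difference between the lines against the spread between replicate libraries within each line, not between independently made lines.

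**Figure D1:**
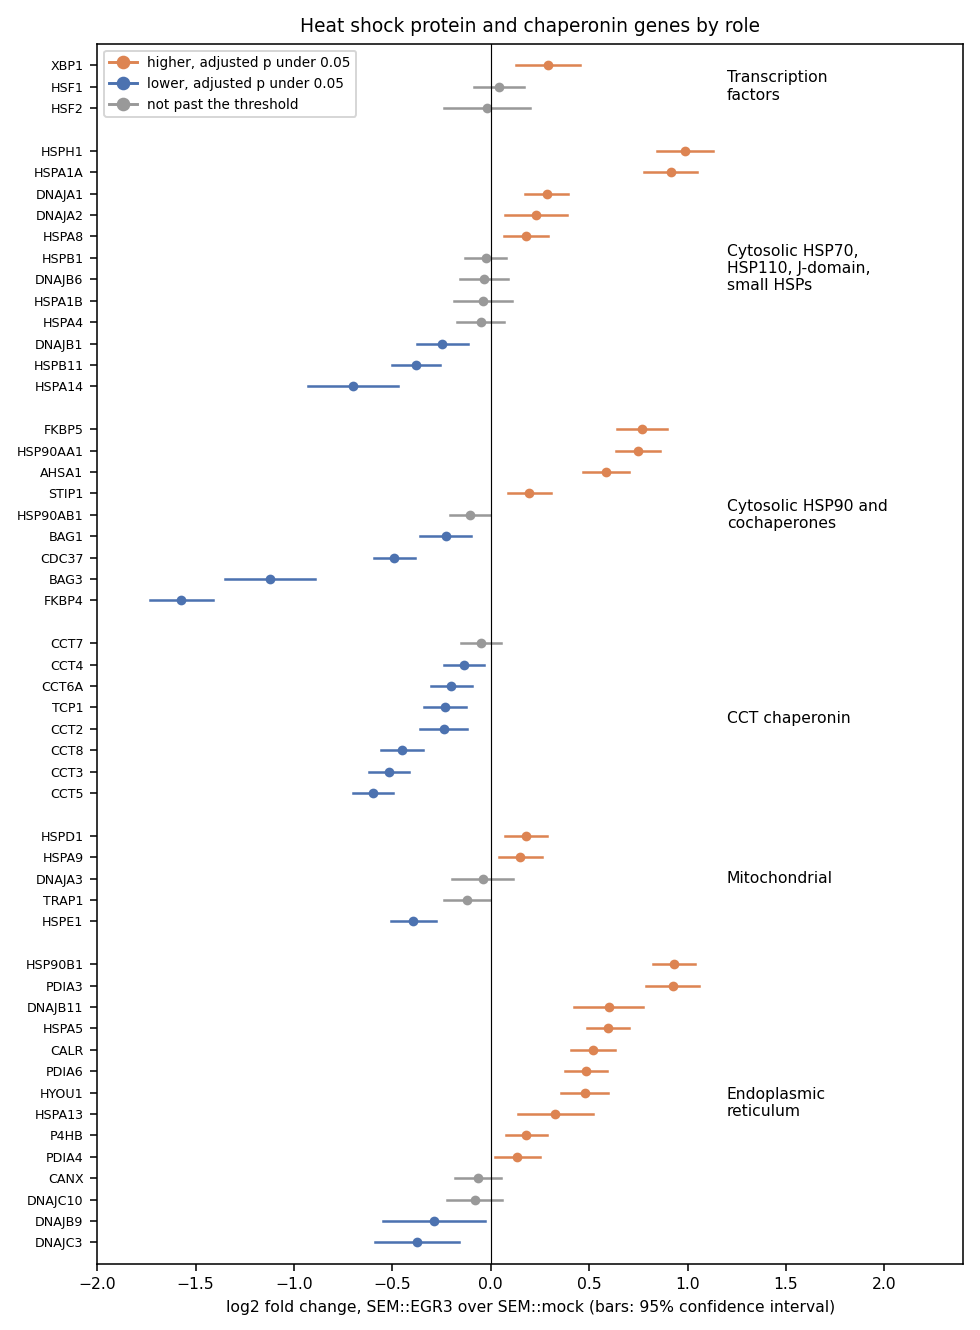
Log2 fold change of each of the 51 genes in SEM::EGR3 over SEM::mock (x axis), grouped by role, with 95% confidence intervals from the fit on 3 libraries per line. The ER genes lie mostly to the right, up to 0.93 for HSP90B1, the 7 called CCT subunits lie left of 0, and both cytosolic groups spread to either side, from 0.99 for HSPH1 to -1.57 for FKBP4.

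The ER group had 10 of 14 higher and 2 lower, with a median of 0.40, and the CCT group had 0 of 8 higher and 7 lower, with a median of -0.24. The cytosolic groups were divided, with 5 higher and 3 lower of 12 in the HSP70 group and 4 higher and 4 lower of 9 in the HSP90 group, and of 5 mitochondrial genes 2 were higher and 1 lower. Beside these counts, 36.5% of all tested genes were higher and 32% lower, and 32.4% and 39.1% of those at least as abundant as the least abundant member. Differences between the groups of members were not tested. Summed levels are given as a description. The ER genes summed to 2843 ± 57.9 CPM in SEM::mock and 3869 ± 37.5 CPM in SEM::EGR3 (SD, n = 3), and the CCT genes to 3625 ± 37.8 and 2907 ± 33.1 CPM. The sum over the mitochondrial genes was 1660 ± 82.5 and 1632 ± 5.15 CPM, and the libraries of both lines overlapped. All CPM values of members are scaled by TMM factors and are not corrected for length, which a count of 3′ ends does not call for.

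**Figure D2:**
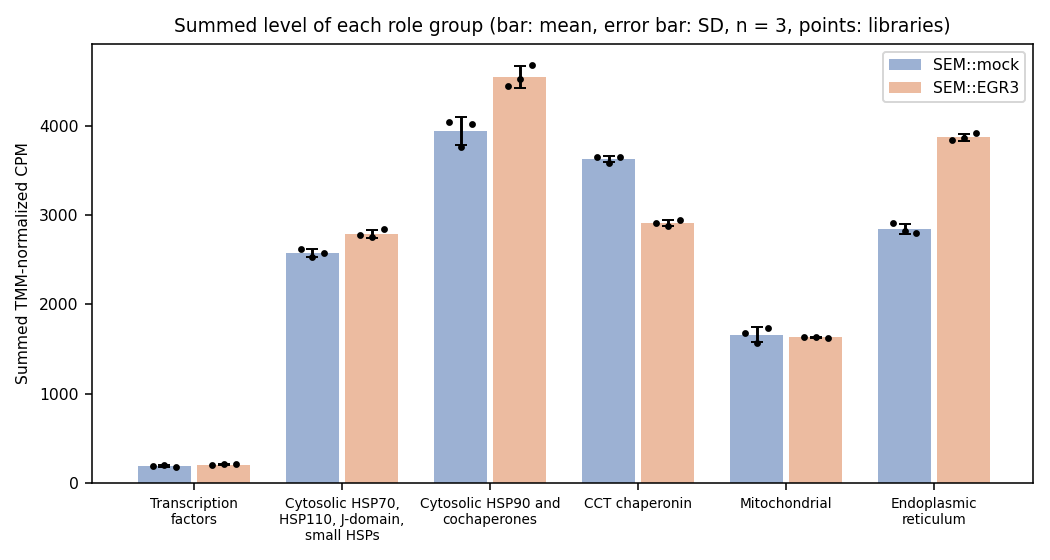
Summed TMM-normalized CPM of each role group in SEM::mock and SEM::EGR3 (y axis), with bars for the mean, error bars for the SD of 3 libraries and points for single libraries. The ER sum is 2843 CPM in SEM::mock and 3869 CPM in SEM::EGR3, and the CCT sum is 3625 and 2907 CPM.

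The transcription factors of both branches changed little. HSF1, the main heat shock factor, had counts of 662, 775 and 589 in SEM::mock and 1867, 957 and 1129 in SEM::EGR3, or 120.3 ± 7.84 and 124 ± 4.23 CPM (SD, n = 3), with a log2 fold change of 0.04 ± 0.06 (SE, adjusted p = 0.558). HSF2, its relative with a role in development, had counts of 185, 154 and 133 in SEM::mock and 401, 236 and 244 in SEM::EGR3, or 28.1 ± 3.89 and 28.1 ± 3.14 CPM, and -0.02 ± 0.11 (SE, adjusted p = 0.875). For both factors the libraries of the lines overlapped, with 95% intervals of the log2 fold change of -0.08 to 0.17 and -0.24 to 0.20. XBP1, whose spliced form drives ER expansion, had counts of 253, 281 and 222 in SEM::mock and 901, 364 and 519 in SEM::EGR3, or 44.9 ± 1.79 and 54.6 ± 5.02 CPM, and rose by 0.29 ± 0.08 (SE, adjusted p = 0.00209), with every SEM::EGR3 library above every SEM::mock library. Splicing of XBP1 cannot be read from 3′ end counts.

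The ER genes that rose were the HSP70 proteins HSPA5 and HSPA13, the HSP110 relative HYOU1, the HSP90 HSP90B1, the J-domain protein DNAJB11, the isomerases PDIA3, PDIA4, PDIA6 and P4HB, and the lectin chaperone CALR. HSP90B1 (chromosome 12, 103930107 to 103953645, plus strand, GENCODE 29 coordinates on GRCh38, as for the genes below) had counts of 1856, 1788 and 1554 in SEM::mock and 9005, 4359 and 5514 in SEM::EGR3, or 309 ± 15.1 and 590.0 ± 15.0 CPM, a log2 fold change of 0.93 ± 0.05 (SE, adjusted p = 6.09e-14). PDIA3, a disulfide isomerase that works with the lectin chaperones (chromosome 15, 43746392 to 43773279, plus strand), had counts of 535, 621 and 458 in SEM::mock and 2717, 1319 and 1769 in SEM::EGR3, or 95.7 ± 7.20 and 182 ± 11.0 CPM, and 0.92 ± 0.06 (SE, adjusted p = 3.67e-12). DNAJB11, a J-domain partner of HSPA5 in the ER (chromosome 3, 186567403 to 186585800, plus strand), had counts of 234, 226 and 173 in SEM::mock and 826, 468 and 517 in SEM::EGR3, or 37.6 ± 3.70 and 57.6 ± 4.90 CPM, and 0.60 ± 0.08 (SE, adjusted p = 8.95e-07). In all 3 genes each SEM::EGR3 library was above each SEM::mock library after scaling. HSPA5 rose by 0.59 on the log2 scale (233 to 353 CPM, adjusted p = 2.29e-10) and CALR by 0.52 (756 to 1084 CPM, adjusted p = 4.6e-09). Smaller rises were measured for the isomerase PDIA6 (0.48), HYOU1, the ER member of the HSP110 family (0.48), the HSP70 relative HSPA13 (0.33), P4HB, the most studied disulfide isomerase (0.18), and PDIA4 (0.14). Of the 5 promoters with the ER stress element printed above, those of HSPA5, HSP90B1, CALR and XBP1 belong to genes that rose. Beside this, 36.5% of all tested genes rose, and 10 of the 14 ER genes did. CANX, the other gene with the element, had 395 to 378 CPM and a log2 fold change of -0.06 (adjusted p = 0.325). Of the 9 higher ER genes with a promoter in the table, 6 lacked the element (DNAJB11, PDIA6, HYOU1, HSPA13, P4HB and PDIA4). PDIA3 is among the 6 members with no promoter in the table.

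The ER group also held genes that fell or did not pass. DNAJC3, which restrains the kinase PERK and serves as a cochaperone of HSPA5, fell by 0.38 on the log2 scale (27.2 to 21.0 CPM, adjusted p = 0.00246). DNAJB9, a J-domain protein that binds the sensor IRE1, was at 17.5 to 14.4 CPM with a log2 fold change of -0.29 (adjusted p = 0.0469) although its libraries overlapped. DNAJC10, an ER reductase, had -0.08 (adjusted p = 0.29). The calls of DNAJB9 and PDIA4 are not firm: leaving out any library except SEM::mock replicate 2 ended the call of DNAJB9 (adjusted p from 0.0512 to 0.229), and leaving out any library except SEM::EGR3 replicate 2 ended that of PDIA4 (adjusted p from 0.0639 to 0.134). With DESeq2 their adjusted p were 0.128 and 0.0793.

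Further genes of the ER system were divided. Of 16 sensors and signalling genes of the unfolded protein response, 7 were higher, 2 lower and 7 did not pass, with a median of 0.08. For this list and the next, the shares of all tested genes were 36.5% higher and 32% lower. EIF2AK3, the kinase PERK, rose by 0.92 (8.23 to 15.3 CPM) and SEL1L, a scaffold of ER-associated degradation, by 0.89 (20.7 to 38.4 CPM), while PPP1R15A, a phosphatase subunit that ends the translation block, had -0.40 and DERL1, of the degradation channel, -0.15 (adjusted p = 0.0447). Of 17 other ER folding factors 16 could be tested, with 9 higher and 5 lower and a median of 0.14. MZB1, a B cell and plasma cell partner of HSP90B1, had counts of 1, 0 and 0 in SEM::mock and 525, 277 and 344 in SEM::EGR3, and no fold is given because SEM::mock was at the detection limit. DNAJB12, a J-domain protein of the ER membrane, rose by 1.61 (23.3 to 71.3 CPM), and the largest falls were those of the isomerase PDIA5 (-0.81) and of DNAJC1 (-0.76).

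In the cytosolic HSP70 group HSPH1 and HSPA1A rose most and HSPA14 fell most. HSPH1, an HSP110 that exchanges nucleotide on HSP70 (chromosome 13, 31134974 to 31162388, minus strand), had counts of 478, 495 and 395 in SEM::mock and 2636, 1069 and 1539 in SEM::EGR3, or 81.3 ± 3.66 and 161 ± 15.0 CPM, a log2 fold change of 0.99 ± 0.07 (SE, adjusted p = 3.44e-12). HSPA1A (chromosome 6, 31815464 to 31817946, plus strand) had counts of 448, 465 and 442 in SEM::mock and 2463, 1044 and 1429 in SEM::EGR3, or 80.9 ± 4.73 and 152 ± 10.2 CPM, and 0.91 ± 0.07 (SE, adjusted p = 5.7e-12). Since reads may be divided between it and its near-identical copy HSPA1B, both were also summed as 1 row, and the sum had a log2 fold change of 0.60. HSPA14, which acts at the ribosome with a J-domain partner (chromosome 10, 14838164 to 14871741, plus strand), had counts of 201, 150 and 161 in SEM::mock and 284, 137 and 181 in SEM::EGR3, or 30.6 ± 5.23 and 18.8 ± 0.933 CPM, and -0.70 ± 0.11 (SE, adjusted p = 4.75e-06). These libraries did not overlap after scaling for any of the 3 genes. Around HSPH1, the 13 tested genes that start within 2 Mb had a median log2 fold change of 0.82, with 11 higher and 2 lower, whereas the medians around HSPA1A and HSPA14 were -0.01 (118 genes) and -0.22 (20 genes). The part of the neighbourhood in the rise of HSPH1 was not tested. HSPA14 shares exon bases on the same strand with AC069544.2, which had 99 to 266 counts, and the strand setting of the counting is not given in the sources used here.

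The other members of the group moved less. The J-domain proteins DNAJA1 (0.28) and DNAJA2 (0.23) and the constitutive HSP70 HSPA8 (0.18, 709 to 803 CPM) rose, and DNAJB1, the J-domain protein most tied to the heat shock response, fell by 0.25 (89.6 to 75.7 CPM, adjusted p = 0.00123), as did HSPB11, a subunit of intraflagellar transport, by 0.38. Values for HSPA1B (-0.04), HSPA4 (-0.05), DNAJB6 (-0.03) and the small heat shock protein HSPB1 (-0.03, 763 to 749 CPM) did not pass. The call of HSPA8 was lost without SEM::mock replicate 2 (adjusted p = 0.0713) or 3 (0.0562), and that of DNAJA2 without SEM::mock replicate 3 (0.0832). Of the genes with the GAANNTTC pair, those other than HSPA1A had absolute log2 fold changes of at most 0.28, with 2 higher, 1 lower (TCP1, described with the CCT subunits) and 3 not passing.

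Among 13 further genes listed with the stress-inducible chaperones 9 could be tested, and 5 were higher and 2 lower. Shares over all tested genes were 36.5% and 32%. The list also holds the secreted CLU and the ER protein SERPINH1, so its count mixes compartments. It includes HSBP1 and the heat shock factor HSF4 as well, which are not chaperones. CLU, which binds misfolded proteins outside cells, rose by 2.97 (56.2 to 439 CPM) and DNAJB5, a J-domain protein, by 4.31, from 3 to 8 counts in SEM::mock to 164 to 333 in SEM::EGR3. SERPINH1, the collagen chaperone, fell by 0.63 (173 to 112 CPM) and HSBP1, which binds HSF1, by 0.44. HSPA6, an HSP70 gene that is nearly silent without stress, had counts of 9, 5 and 8 in SEM::mock and 12, 6 and 9 in SEM::EGR3, too few to be tested. It was named after its values were seen.

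The HSP90 system was divided, with an inducible HSP90 and its activator higher and the HSP90 immunophilin FKBP4 lower. HSP90AA1, the inducible HSP90 (chromosome 14, 102080738 to 102139699, minus strand), had counts of 6832, 6507 and 6115 in SEM::mock and 28983, 14310 and 18732 in SEM::EGR3, or 1161 ± 65.3 and 1948 ± 103 CPM, a log2 fold change of 0.75 ± 0.05 (SE, adjusted p = 6.03e-12). FKBP5, an immunophilin that lowers the affinity of the glucocorticoid receptor (chromosome 6, 35573585 to 35728583, minus strand), had counts of 409, 469 and 385 in SEM::mock and 1959, 939 and 1200 in SEM::EGR3, or 75.1 ± 3.13 and 128 ± 3.57 CPM, and 0.77 ± 0.06 (SE, adjusted p = 4.81e-11). AHSA1, which stimulates the ATPase of HSP90 (chromosome 14, 77457870 to 77469474, plus strand), had counts of 680, 672 and 611 in SEM::mock and 2674, 1304 and 1637 in SEM::EGR3, or 117 ± 4.28 and 176 ± 4.25 CPM, and 0.59 ± 0.06 (SE, adjusted p = 1.67e-09). In each of them the SEM::EGR3 libraries lay above the SEM::mock libraries. FKBP4, the immunophilin that couples HSP90 clients to dynein (chromosome 12, 2794953 to 2805423, plus strand), had counts of 464, 503 and 498 in SEM::mock and 465, 226 and 254 in SEM::EGR3, or 87.6 ± 8.43 and 29.4 ± 1.25 CPM, and fell with a log2 fold change of -1.57 ± 0.08 (SE, adjusted p = 3.61e-15), the largest change of any member. BAG3, an HSP70 cochaperone of selective autophagy (chromosome 10, 119651370 to 119677819, plus strand), had counts of 133, 154 and 125 in SEM::mock and 184, 80 and 99 in SEM::EGR3, or 24.5 ± 1.14 and 11.1 ± 0.586 CPM, and -1.12 ± 0.11 (SE, adjusted p = 2.34e-09). For both genes all SEM::EGR3 libraries were below all SEM::mock libraries. CDC37, which brings kinases to HSP90, fell by 0.49 (367 to 261 CPM) and BAG1 by 0.23, and STIP1, which joins HSP70 to HSP90, rose by 0.20. HSP90AB1, the constitutive HSP90, was at 1781 to 1655 CPM and did not pass (-0.11, adjusted p = 0.0577). Without SEM::mock replicate 2 it passed (adjusted p = 0.0154).

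**Figure D3:**
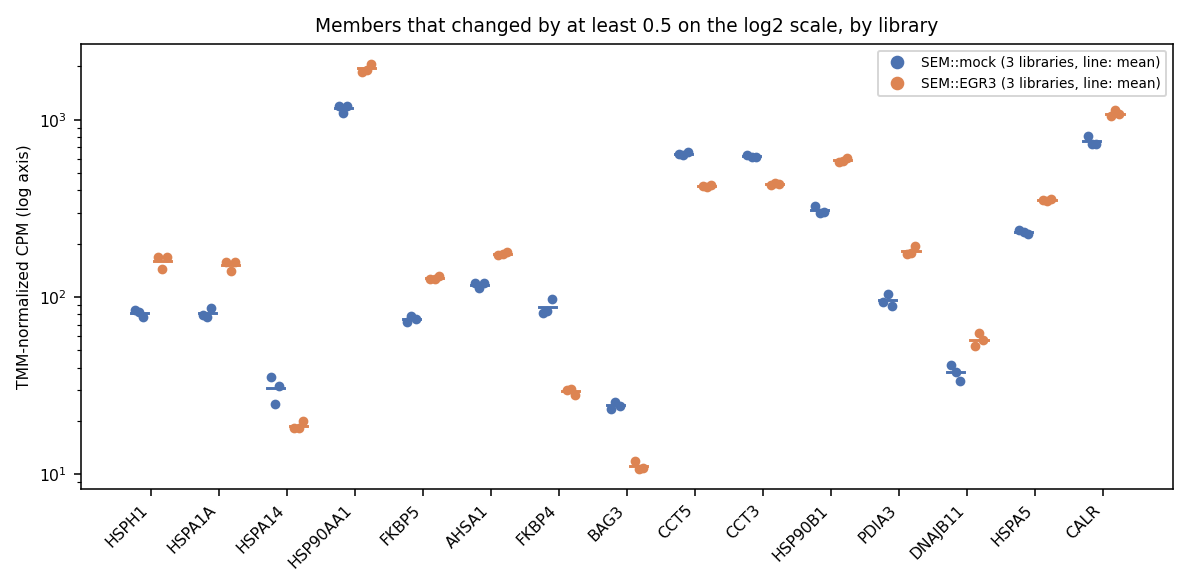
TMM-normalized CPM in each library (log y axis) of the 15 members that passed with a change of 0.5 or more on the log2 scale, with points for the 3 libraries of each line and a line for the mean. SEM::mock and SEM::EGR3 points do not overlap for any of the 15 genes, which were picked by their change in these same libraries. Of all tested genes, 70.1% did not overlap. FKBP4 shows the widest gap on this axis, from 87.6 to 29.4 CPM.

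Of 18 further cochaperones, 9 were higher and 4 lower, with a median of 0.11, where 36.5% and 32% of all tested genes were. CDC37L1, a relative of CDC37, rose by 1.45 (4.61 to 12.7 CPM) and HSPA4L, an HSP110 relative, by 0.63, while BAG2, which inhibits the ligase STUB1, had -0.50 and NUDC -0.43.

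Most CCT chaperonin subunits were lower in SEM::EGR3, with 7 of 8 past the threshold. Among all tested genes 32% were lower, and 39.1% among those at least as abundant as the least abundant member. That member averaged 15.9 CPM, far below every CCT subunit, so the 39.1% is not matched to their abundance. CCT5 (chromosome 5, 10249921 to 10266412, plus strand) had counts of 3622, 3792 and 3355 in SEM::mock and 6577, 3133 and 3901 in SEM::EGR3, or 642 ± 11.9 and 424 ± 4.74 CPM, a log2 fold change of -0.60 ± 0.05 (SE, adjusted p = 7.53e-11). CCT3 (chromosome 1, 156308968 to 156367873, minus strand) had counts of 3608, 3697 and 3159 in SEM::mock and 6653, 3284 and 3971 in SEM::EGR3, or 623 ± 10.5 and 435 ± 6.84 CPM, and -0.52 ± 0.05 (SE, adjusted p = 1.07e-09). Both were lower in every SEM::EGR3 library than in any SEM::mock library. The subunits did not move by equal amounts, although the ring holds each subunit in the same number: CCT8 fell by 0.45, CCT2 by 0.24, TCP1 by 0.23, CCT6A by 0.20 and CCT4 by 0.14, and CCT7 had -0.05 (528 to 510.2 CPM, adjusted p = 0.378). CCT4 no longer passed when SEM::EGR3 replicate 1 was left out (adjusted p = 0.0649) or when normalization factors were omitted (adjusted p = 0.3). The 7 tested neighbours of CCT5 had a median of -0.36, with 5 lower and 2 higher, and the 83 around CCT3 a median of -0.13. The part of these neighbourhoods was not tested. A further list held 14 genes for prefoldin, which hands actin and tubulin to the ring, for tubulin cofactors, which act on tubulin after its release, and for other CCT partners. Of these 11 could be tested, and 3 were higher and 6 lower, with a median of -0.25, beside 36.5% and 32% of all tested genes. PFDN6 had -0.64 (119.8 to 77.5 CPM) and the tubulin cofactor TBCC -0.56, while TBCD rose by 0.61 and PDCL3 by 0.54.

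The mitochondrial chaperones showed small and opposite changes. HSPD1, the HSP60 barrel (0.18, 597 to 676 CPM), and HSPA9, the mitochondrial HSP70 (0.15, 266 to 295 CPM), rose, and HSPE1, the HSP10 lid of the barrel, fell by 0.39 (474 to 361 CPM, adjusted p = 1.04e-06). Exons of HSPD1 and HSPE1 overlap on opposite strands. The strand setting of the counting is not given in the sources used here, so their levels may not have been counted independently. TRAP1, the mitochondrial HSP90, had -0.12 (adjusted p = 0.0589) and the J-domain protein DNAJA3 -0.04 (adjusted p = 0.636). Rows named as pseudogenes of HSPE1 held 31.0% as many counts as the gene in 18 rows, and those of HSPB1 16.4% in 2 rows, so reads of these genes may be divided among copies. Adding such rows to their genes, with HSPA1A and HSPA1B summed as 1 row, changed no call among the 50 rows then tested. HSPA9 lost its call without SEM::mock replicate 1, 2 or 3 or SEM::EGR3 replicate 3 (adjusted p from 0.0517 to 0.0646), HSPD1 lost it without SEM::mock replicate 2 (0.0628), and TRAP1 gained it without SEM::mock replicate 2 (0.0218) or SEM::EGR3 replicate 2 (0.0178). Of 13 mitochondrial cochaperones and proteases 11 could be tested, with 4 higher and 5 lower and a median of -0.07. Both counts stand beside 36.5% higher and 32% lower among all tested genes. CLPX, of the matrix protease, rose by 0.31 and AFG3L2, of the inner membrane, by 0.25, and HTRA2 had -0.57 and YME1L1 -0.40.

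Pairs of related genes moved apart within single libraries, a comparison that needs no scaling between libraries. These 6 pairs were chosen after their values were seen, so the ratios are a description. The ratio of HSPA1A to HSPA1B counts was 1.40, 1.44 and 1.61 in SEM::mock and 3.15, 2.52 and 2.89 in SEM::EGR3. HSP90AA1 over HSP90AB1 was 0.648, 0.642 and 0.665 in SEM::mock and 1.14, 1.16 and 1.23 in SEM::EGR3, so that the order of the inducible and the constitutive HSP90 turned. FKBP5 over FKBP4 was 0.881, 0.932 and 0.773 in SEM::mock and 4.21, 4.15 and 4.72 in SEM::EGR3. These are ratios of counts, and the genes differ in where reads can be placed. For HSPA1A and HSPA1B, whose coding sequences are nearly identical, how reads that match both were counted is not given in the sources used here, so their division is uncertain. HSPD1 over HSPE1, the barrel over its lid, was 1.31, 1.27 and 1.21 in SEM::mock and 1.81, 1.95 and 1.87 in SEM::EGR3. Since exons of HSPD1 and HSPE1 overlap on opposite strands and the strand setting is not given, this ratio is uncertain too. PDIA3 over CANX was 0.245, 0.250 and 0.230 in SEM::mock and 0.435, 0.509 and 0.507 in SEM::EGR3, and HSPH1 over HSPA4 was 0.329, 0.363 and 0.345 in SEM::mock and 0.767, 0.621 and 0.732 in SEM::EGR3. In all 6 pairs the libraries of the lines did not overlap. With 3 libraries against 3 an exact two-sided permutation test cannot go below p = 0.1.

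**Figure D4:**
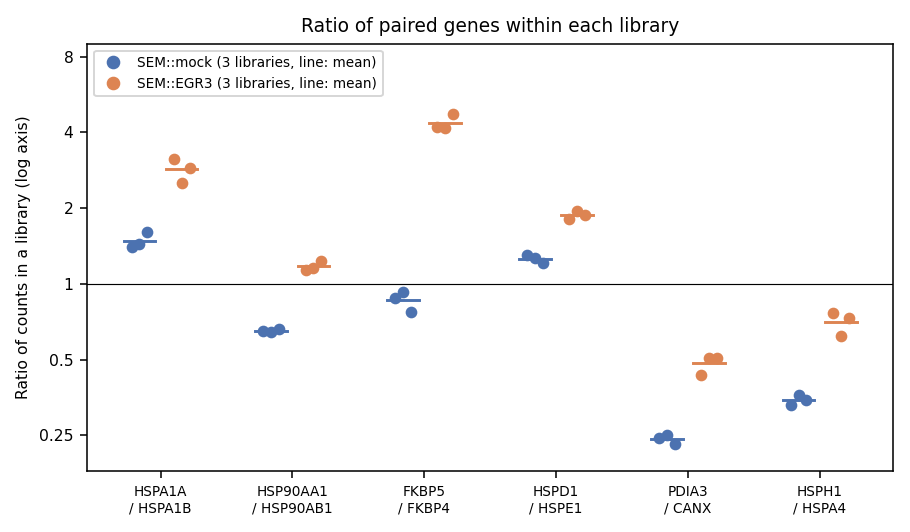
Ratio of the counts of 6 pairs of genes in each library (log y axis), with points for libraries and a line for the mean of each line. SEM::EGR3 lies above SEM::mock in every pair, and HSP90AA1 over HSP90AB1 goes from a mean of 0.652 to 1.18, across the line at 1.

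Among the 39 called members, 24 had the same sign as the median of the tested genes that start within 2 Mb, other members left out. The medians around all 51 members ranged from -0.45 to 0.82. The same share was not computed over all called genes, so the 24 of 39 is a description only. FKBP4 lay among 29 neighbours with a median of 0.32 and HSP90B1 among 20 with a median of -0.11, both opposite to the gene itself. Other members moved with their neighbours. PDIA3 lay among 55 with a median of 0.38 (34 higher, 5 lower). HSP90AA1 lay among 46 with a median of 0.28 (22 higher, 9 lower), and AHSA1 among 26 with a median of 0.21. The part of these neighbourhoods was not tested. Exons of 21 members overlap another gene of the table, on the opposite strand only for 18 of them. For the 15 members that passed with a change of 0.5 or more on the log2 scale, the overlapping gene with the most counts was AC092069.1, opposite CALR, with 188 to 726 counts, against 3735 to 16289 for CALR.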

How the data were processed

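RNA of 3 SEM::mock and 3 SEM::EGR3 replicates was sequenced by MACE-Seq. Per gene and library the authors deposited raw counts, in whole numbers, and CPM values that carry no length correction although headed as TPM. The submitters' processing notes name bcl2fastq, Bowtie2, HTSeq and GRCh38, and the annotation, strand setting and treatment of reads with several matches are not given in the sources used here. Columns headed ERG3 were read as SEM::EGR3 by their titles. The 6 size-factor normalized columns were not used, nor were the columns of the authors' own comparison (log2 fold changes with raw and adjusted p-values). Counts were analysed with edgeR 4.0.16 in R 4.3.3 (filterByExpr, TMM, glmQLFit, glmQLFTest, Benjamini-Hochberg over 15465 genes, no further term). The deposited CPM values were used only to derive library totals, and 73.6% to 75.8% of each total lay in the listed genes. CPM in the text was recomputed from counts with TMM factors. Whether molecular identifiers were used in counting is not given in the sources used here.

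With simulated counts for this comparison over 15040 genes, 93 of 99 genes changed by 1 on the log2 scale and 97 of 97 changed by 2 were recovered, with 6 false calls. In that run 196 genes were changed, whereas 68.5% of the tested genes passed in the measured counts. Recovery with so large a share of genes changed was not tested. Replicates differed by more than counting noise (chi-square per gene from 1.71 to 3.12). A gene with no library of a line above 3 counts was taken to be at the detection limit there. Positions are from GENCODE 29 and promoters from RefSeq. The members and lists were chosen with earlier results of these data known. Counts in every library are given for the transcription factors and for members with an adjusted p under 0.05 and a change of 0.5 or more on the log2 scale, up to 3 per direction and role, and in other lists the 2 largest rises and falls averaging 100 or more counts in whichever line had the higher level are named. Alternatives were DESeq2 1.42.0, other normalizations and filters, a replicate term, thinning to the smallest library, other thresholds, added pseudogene rows and leaving out each library.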

Additional observations from a re-analysis of the deposited data

How the results depend on the processing

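Of 39 called members, 32 kept direction and call in all 15 refits, among them the 15 with a change of 0.5 or more on the log2 scale. The exceptions are CCT4, DNAJA2, DNAJB9, HSPA8, HSPA9, HSPD1 and PDIA4, and the cause was not tested. Over the refits and at an adjusted p of 0.01, 18 to 22 members were higher and 15 to 19 lower. Requiring a change of 0.5 or more left 10 members higher and 5 lower, and 18 and 7 of the other chaperone network genes. Requiring 1 or more left 0 and 2 members, and 8 and 0 of the others.

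The members' median log2 fold change of -0.03 was 0.0412 without normalization factors, 0.0162 with at least 10 counts in every library, and -0.0507 to 0.00315 with 1 library left out. Some members that did not pass changed sign near 0. Without normalization factors the values were 0.0555 for HSF2, 0.0365 for HSPA1B, 0.0230 for HSPA4, 0.0412 for DNAJB6, 0.0504 for HSPB1, 0.0257 for CCT7, 0.0341 for DNAJA3 and 0.0118 for CANX. With at least 10 counts in every library they were 0.0305 for HSF2, 0.0113 for HSPA1B, 0.0162 for DNAJB6, 0.0255 for HSPB1, 0.000949 for CCT7 and 0.00948 for DNAJA3. With 1 library left out HSF1 ranged from -0.00480 to 0.0849, HSF2 from -0.0988 to 0.0826, DNAJA3 from -0.134 to 0.0196 and HSPA1B from -0.0684 to 0.0147.

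Testing 34056 genes without a filter moved the median of all genes by 0.19, since rare genes enter. Libraries of the same replicate number showed no positive correlation of their deviations from the line means (-0.14 to -0.04 over the 3 same-number pairs). With 3 libraries per line this cannot show whether such libraries were handled together. With the replicate block 20 members were higher and 15 lower.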
